A study of Mus musculus with 3 samples.

Results

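Rab GTPases are small membrane-bound switches that sort the traffic of vesicles inside cells. They were followed here on 3 Affymetrix arrays of mouse bone marrow cultures on their way to osteoclasts. The members were all genes with a probe set annotated to a single symbol that begins with Rab and a digit, which gave 56 genes on 105 probe sets, of 12393 genes in all. Of these, 50 encode Rab GTPases and 6 only carry a Rab name: the exchange factors Rab3ip and Rab3il1, the Rab11-binding protein Rab11fip5, the Rab3gap2 subunit of a GTPase activating complex, Rab5if and the opposite-strand transcript Rab26os. The label therefore fits 50 of the 56 genes, and the others are described apart. The marrow came from the C57/BL6 strain and was first cultured with hM-CSF (the macrophage growth factor, 50 ng/ml, 3 days). The macrophages then received hRANKL, the cytokine that drives osteoclast formation, at 150 ng/ml for 0, 24 or 72 h, and 1 array was made at each time. The labels call the 3 stages precursor, differentiating precursor and osteoclast, and name no altered allele, age or sex. The series has no RANKL-free culture of the later times, so the effects of RANKL and of time in culture cannot be told apart.

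A single array stands for each time, so nothing below has a replicate check or a test, and precision is limited by this number of arrays. The error is technical, the SD between probe sets of the same gene, which was 0.41 on the log2 scale for 24 h over 0 h (2727 genes), 0.49 for 72 h over 0 h (2702 genes) and 0.36 for 72 h over 24 h (2785 genes). Signals are in scaled units after the arrays were centred on a common median, because the deposited medians stood 0.73 and 0.77 higher on the log2 scale at 24 and 72 h than at 0 h. All differences are therefore relative to the median of the array. A signal under the floor of 29.6 units was treated as not measured, and a gene counted as higher or lower when it differed at least 2-fold. The culture labels were set against marker lists: 9 of 9 osteoclast markers on the array were higher at 72 h than at 0 h, with a summed signal of 1929 at 0 h, 8639 at 24 h and 33298 at 72 h. During the same times 12 macrophage markers summed to 33243, 12164 and 16477, and 9 markers of neutrophils and their precursors to 18656, 12730 and 1345. The stromal cell and osteoblast markers, 6 genes, summed to 1325, 1518 and 5197, and 2 of them were higher at 72 h over 0 h. Of the T and NK cell markers Cd3d, Cd3e, Cd3g, Cd2, Cd8a, Ncr1 and Nkg7 were under the floor at every time, and Cd4 was above it at 0 h alone (60.3). The B cell markers Cd79a, Ms4a1, Pax5, Blk and Vpreb1 were under the floor at every time, while Cd79b, Vpreb3 and Igll1 were just above it at 0 h (45.1, 31.3 and 36.5). How far a change in cell mixture contributed to the Rab values was not tested, and in such bulk RNA fewer cells of a type and less RNA per cell cannot be told apart.

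A Rab protein is switched on by an exchange factor that loads GTP, binds effectors that tether or move a vesicle, and is switched off by an activating protein. Each Rab marks its own compartment, so the set of Rabs in a cell reads as a map of its traffic routes. Osteoclasts are known for a lysosome-like secretion: acidic vesicles fuse with the ruffled border, the membrane that faces bone, and Rab7, Rab3d, Rab27a and Rab38 have been linked to secretory or lysosome-related traffic of this kind.

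Most Rab GTPases were expressed at every stage and stayed within 2-fold. Of the 50 genes, 38 were above the floor on all 3 arrays, 40 on at least 1, and 10 on none. Against 0 h, 0 of 40 measured Rab GTPases were higher and 5 were lower at 24 h, while among all genes 13.2% were higher and 9.22% lower. The 5 were Rab7b, Rab27b, Rab32, Rab33b and Rab43. At 72 h over 0 h 1 of 40 was higher, Rab38, and 4 were lower, Rab7b, Rab8b, Rab27b and Rab32. The shares over all genes were 12.5% higher and 12.8% lower. Between the later times, 72 h over 24 h, Rab38 was the 1 gene of 39 that was higher and Rab8b the 1 that was lower, against 6.92% and 10.0% of all genes. The share of Rab GTPases that differed at least 2-fold either way was 12.5%, 12.5% and 5.13% in these comparisons, against 22.4%, 25.3% and 16.9% of all genes.

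These counts depend on the scaling of the arrays. On the deposited scale 7 of 40 Rab GTPases were higher and 1 lower at 24 h over 0 h. At 72 h over 0 h 16 of 40 were higher and 3 lower. On that scale 8924 genes in all were above the floor on at least 1 array. Of all genes, 3302 were higher and 314 lower at 24 h over 0 h, and 2985 and 455 at 72 h over 0 h. Among all genes the higher calls then made up 91.3% and 86.8% of the calls, against 58.8% and 49.4% after centring. At 24 h that share was 46.9% after quantile normalization and 42.2% after trimmed mean scaling, under each of which 0 Rab GTPases were higher and 7 lower.

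**Figure D1:**
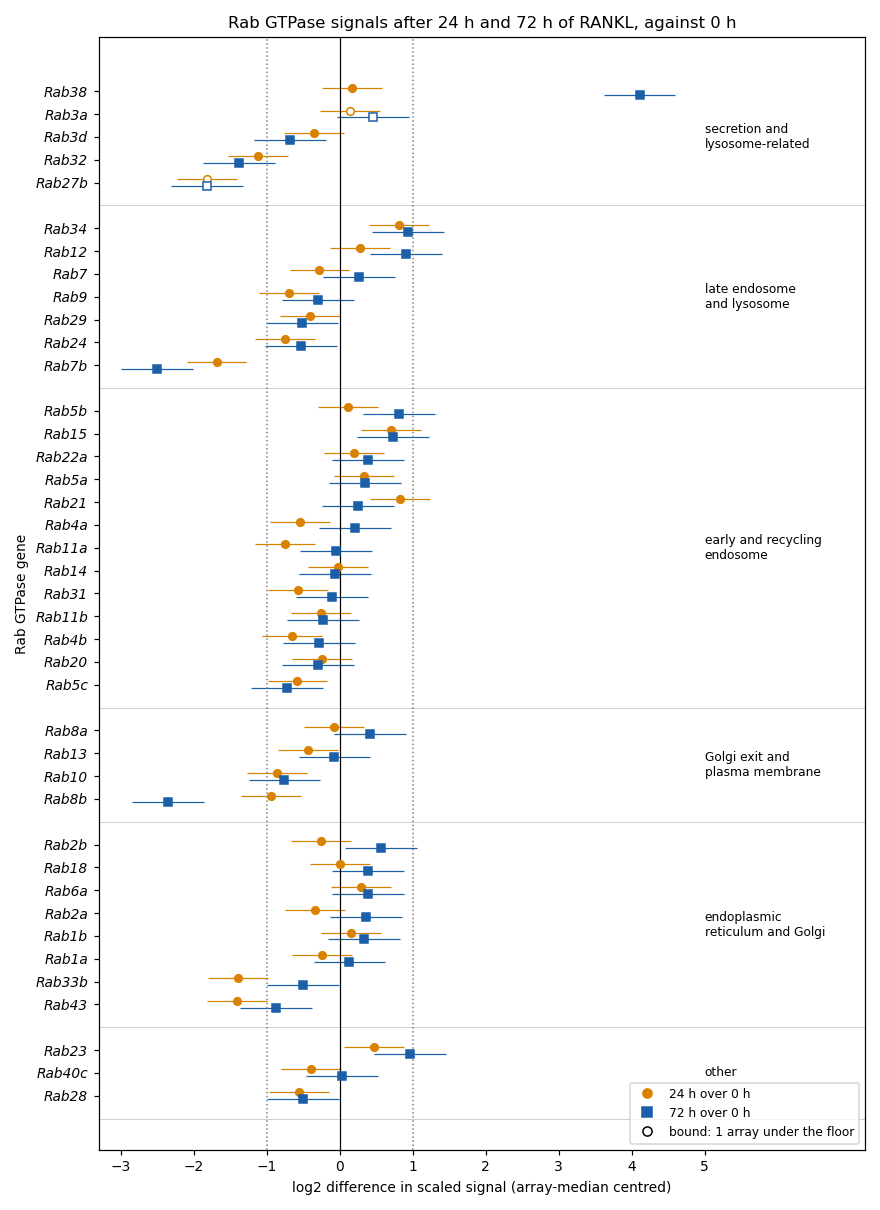
Log2 difference in scaled signal (horizontal axis) of the 40 Rab GTPase genes above the floor on at least 1 array, grouped by role; circles are 24 h over 0 h, squares 72 h over 0 h, bars 1 technical SD (0.41 and 0.49), open symbols bounds, and dotted lines 2-fold. Rab38 stands alone on the right at 4.11 for 72 h, while Rab7b and Rab8b lie farthest left at -2.50 and -2.36.

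Rab38 had the largest difference of the family. Rab38 and its close relative Rab32 steer enzymes to lysosome-related organelles such as the melanosome. Rab38 signals stood at 95.8 (0 h), 108 (24 h) and 1652 (72 h). The first 2 arrays thus lay close together and the 72 h array stood far above both. The difference was 17.3-fold at 72 h over 0 h (log2 4.11, technical SD 0.49) and 15.4-fold at 72 h over 24 h (log2 3.94, technical SD 0.36). In these comparisons 23 and 9 measured genes had a larger increase, which put Rab38 at rank 24 of 8558 and rank 10 of 8391. At 24 h over 0 h its difference of 0.17 was smaller than 1 technical SD. Rab38 rests on 1 probe set, and its 2 calls were kept under all 9 alternative settings, with log2 values from 3.97 to 4.88 over 0 h and from 3.92 to 4.01 over 24 h. With 1 probe set above every floor tried, only the 4 scalings could change these values.

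Rab32 went the other way. Its signals were 617 (0 h), 283 (24 h) and 238 (72 h). Both later arrays lay below the 0 h array, 2.18-fold lower at 24 h (log2 -1.12) and 2.60-fold lower at 72 h (log2 -1.38). Between 24 and 72 h, when Rab38 was 15.4-fold higher, Rab32 differed by -0.25 on the log2 scale, within the technical SD. Both Rab32 calls were lost on the deposited scale, at -0.40 and -0.60. Of the exchange complex known to activate Rab32 and Rab38, the subunit gene Hps4 had signals of 239, 134 and 111 at 0, 24 and 72 h, and was 2.16-fold lower at 72 h over 0 h.

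Rab27a, which docks secretory lysosomes and granules, was under the floor on all 3 arrays by each of its 3 probe sets, the highest of which ended at 16.8. Rab27b, its relative in platelets and other granule-bearing cells, had a signal of 104 at 0 h and lay under the floor at 24 h (27.0) and 72 h (14.0), so it was at least 3.53-fold lower at both times. That call was lost with the higher floor and when probe sets were averaged. Of 7 markers of megakaryocytes and platelets, 6 were also lower at 24 h and 6 at 72 h, with summed signals of 9153, 1802 and 1629 at the 3 times. The 1 marker of that list that was higher at 72 h, Itgb3, also stands in the osteoclast list. The part of these cells in the Rab27b value was not tested.

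Rab3d, which acts in regulated secretion, had signals of 146, 115 and 91.3 at 0, 24 and 72 h by its brightest probe set and stayed within 2-fold, at -0.35 and -0.68 on the log2 scale over 0 h. Its next probe sets read 173, 83.9 and 69.4, and 137, 44.5 and 66.1, which is 2.49-fold and 2.07-fold lower at 72 h over 0 h. All 3 probe sets were thus highest at 0 h, but they differed in whether the decrease reached 2-fold. The fourth lay near the floor. Rab3a, a Rab of synaptic vesicles, was above the floor at 24 h (32.6) and 72 h (40.5) but not at 0 h (23.2). Rab3b, Rab3c and Rab37 were under the floor throughout, and Rab44 was not analysed here.

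Among the Rabs of late endosomes and lysosomes, 7 were measured. Of these 1 (14.3%) differed at least 2-fold at 24 h and at 72 h over 0 h, against 22.4% and 25.3% of all genes. At 72 h over 24 h 0 did, against 16.9% of all genes. Rab7, which drives the fusion of late endosomes with lysosomes, had signals of 2340, 1933 and 2815 at the 3 times. Its second probe set read 808, 733 and 1214. Both were lowest at 24 h and highest at 72 h, with 72 h over 0 h at 0.27 and 0.59 on the log2 scale, within 2-fold. Rab7b, a relative that carries cargo from endosomes to the Golgi and restrains Toll-like receptor signalling in macrophages, had signals of 430, 133 and 76.0. It was lower at each later time, 3.22-fold at 24 h (log2 -1.69) and 5.65-fold at 72 h (log2 -2.50). Its second probe set read 230, 130 and 70.2, which is 1.77-fold and 3.28-fold lower. The 72 h call held under all 9 alternatives, and the 24 h call was lost on the deposited scale and without probe sets that match several transcripts. Over the same times 9 of 12 macrophage markers were lower at 24 h over 0 h and 9 at 72 h over 0 h. Their part in the Rab7b value was not tested.

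The other late endosomal Rabs were within 2-fold of 0 h. Rab34, which positions lysosomes and acts in macropinocytosis, came nearest from above, with signals of 159, 280 and 304 by its brightest probe set. Its other probe set read 135, 213 and 369, which is 2.73-fold higher at 72 h over 0 h. The 2 probe sets agreed in direction and stood on either side of the 2-fold line. Rab12, which sends transferrin receptor to lysosomes, had signals of 177, 216 and 332, a difference of 0.91 at 72 h over 0 h. Rab9, which returns cargo from late endosomes to the Golgi, had 522, 322 and 424. Rab24 and Rab29 differed by -0.53 and -0.52 at 72 h over 0 h.

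**Figure D2:**
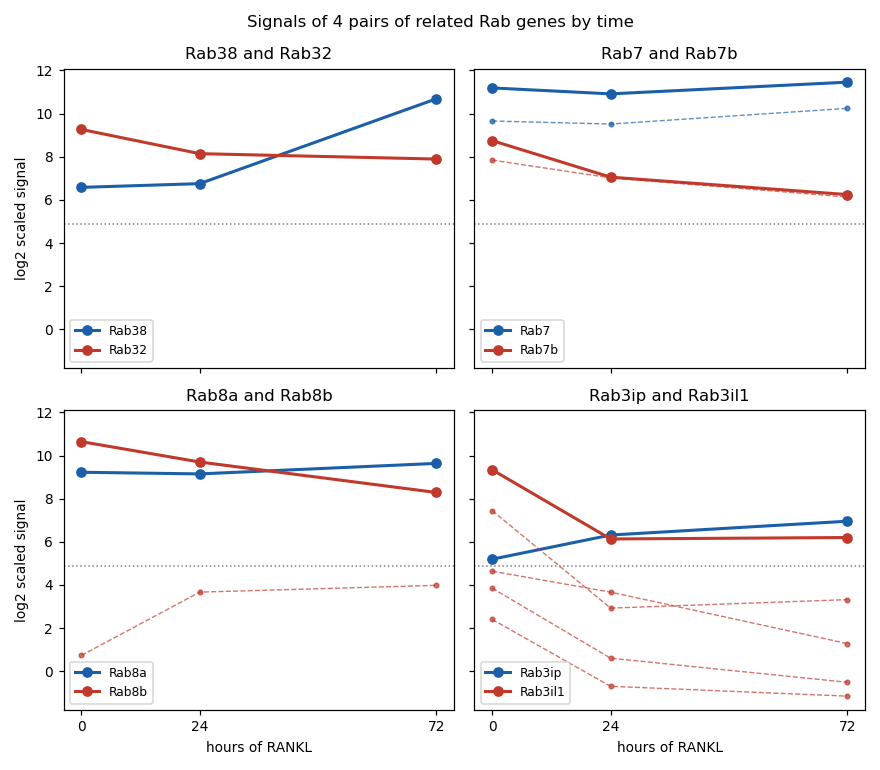
Log2 scaled signal (vertical axis) against hours of RANKL for 4 pairs of related genes; thick lines are the brightest probe set of each gene, dashed lines its other probe sets, and the dotted line is the floor at 4.89. Rab38 crosses above Rab32 between 24 and 72 h, Rab7b and Rab8b are lower at each later time while Rab7 and Rab8a stay level within 2-fold, and Rab3ip and Rab3il1 move in opposite directions.

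No Rab of the early and recycling endosome differed at least 2-fold by its brightest probe set in any of the 3 comparisons. Among all genes 22.4% did at 24 h over 0 h, 25.3% at 72 h over 0 h and 16.9% at 72 h over 24 h. The group had 13 measured genes, and their differences ran from -0.75 to 0.83 at 24 h over 0 h and from -0.72 to 0.81 at 72 h over 0 h. The Rab5 genes, which govern entry into the early endosome, did not move as 1 block. Rab5a had signals of 544, 684 and 691 at 0, 24 and 72 h, and Rab5b 41.5, 45.0 and 72.9. Rab5c had 427, 286 and 259. The first 2 thus ended above 0 h and Rab5c below it, each by less than 2-fold.

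Rab11a, the main Rab of slow recycling, had signals of 948, 563 and 914, a dip at 24 h of -0.75 on the log2 scale followed by a return. Its second probe set read 153, 162 and 144 and showed no such dip. Rab11b had 496, 416 and 425. Rab14, which links endosomes and Golgi, read 2240, 2204 and 2146 by the brightest of its 6 probe sets, level within 1.04-fold. Its other 5 probe sets were lower at 72 h over 0 h, by values from -0.26 to -1.14 on the log2 scale, and the average of all 6 was -0.57. Rab21, which carries integrins inward, had 405, 719 and 481, and was the 1 Rab GTPase with its highest value at 24 h. Rab31 differed between probe sets: the brightest read 910, 613 and 845, and the other 77.7, 72.1 and 189, which is 2.43-fold higher at 72 h over 0 h. Rab17 and Rab25, Rabs of epithelial cells, were under the floor throughout.

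Rab4a and Rab4b, which recycle receptors quickly to the surface, had signals of 67.7, 46.4 and 78.5 and of 363, 232 and 299 at 0, 24 and 72 h. Both had the dip at 24 h by these brightest probe sets. The second Rab4a probe set read 8.94, 28.6 and 39.4, above the floor only at 72 h, and showed no such dip. Rab15 had 66.1, 108 and 110, higher at both later times by 0.71 and 0.73 on the log2 scale. Rab22a had 189, 216 and 248, and Rab20, found on phagosomes of macrophages, 87.7, 74.5 and 71.4. By these brightest probe sets Rab22a and Rab20 had differences from 0 h under 1 technical SD. The second Rab22a probe set read 129, 140 and 225, a difference of 0.81 at 72 h over 0 h and above 1 technical SD. The third lay near the floor (38.6, 36.9 and 26.2).

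Of the 4 measured Rabs that carry cargo from the Golgi to the cell surface, 1 differed at least 2-fold, Rab8b. It did so at 72 h over 0 h and over 24 h, where 25.3% and 16.9% of all genes did. Its signals were 1600 (0 h), 831 (24 h) and 312 (72 h). It was lower at each later time, by a factor of 1.93 at 24 h over 0 h, 5.12-fold at 72 h over 0 h (log2 -2.36) and 2.66-fold at 72 h over 24 h (log2 -1.41). The value rests on 1 probe set, since the other was under the floor on all 3 arrays (1.66, 12.7 and 15.8). Averaging both turned the 72 h over 0 h difference to 0.45 and the 24 h over 0 h difference to 0.99, and brought the 72 h over 24 h difference to -0.55, under 2-fold. Rab8a, its close relative in traffic to the surface and the cilium, had signals of 598, 567 and 795 and stayed within 2-fold. Rab10 had 813, 449 and 482 by its brightest probe set, and its other probe sets read 328, 264 and 444, and 221, 166 and 193. All were lowest at 24 h, but they differed in sign at 72 h over 0 h. There the brightest gave -0.76 on the log2 scale and the others 0.43 and -0.19. Rab13, which acts at cell junctions, had 130, 96.2 and 124.

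Of the 8 measured Rabs of the endoplasmic reticulum and Golgi, 2 were at least 2-fold lower at 24 h over 0 h and 0 at 72 h over 0 h. Among all genes 9.22% and 12.8% were lower in these comparisons. In both of them 0 of the 8 were at least 2-fold higher, against 13.2% and 12.5% of all genes. Rab33b, which acts in Golgi traffic and autophagosome formation, had signals of 156, 59.3 and 111, 2.63-fold lower at 24 h over 0 h and 1.41-fold lower at 72 h over 0 h. Rab43, a Rab of Golgi and phagosome traffic, had 148, 55.7 and 80.9, which is 2.65-fold lower at 24 h. The other Rab43 probe set read 53.9, 53.7 and 63.3 and showed no such dip, and averaging the 2 ended the call. Both 24 h calls were lost on the deposited scale and with the higher floor. From 24 to 72 h all 8 measured genes of the group had a positive difference, between 0.09 and 0.90 on the log2 scale and thus under 2-fold. In that comparison 30 of 39 measured Rab GTPases and 3398 of 8391 genes were above 0. Rab1a, needed for transport from the endoplasmic reticulum to the Golgi, read 2629, 2230 and 2887, and Rab2a 966, 764 and 1244. The second Rab1a probe set read 711, 467 and 587, with 72 h below 0 h. The next probe sets of Rab2a read 751, 813 and 774, and 486, 489 and 483, with neither the dip at 24 h nor the higher value at 72 h. Rab1b had 360, 400 and 452, and Rab6a, which returns vesicles through the Golgi, 415, 510 and 543. Rab2b, a relative of Rab2a, had 55.9, 46.7 and 82.6 by its brightest probe set, a difference of 0.56 at 72 h over 0 h. Its other probe sets ranged from 0.06 to 0.70 in that comparison. Rab6b, Rab30 and Rab33a were under the floor on all 3 arrays.

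Rab18, a Rab of the endoplasmic reticulum and lipid droplets, gave different answers by probe set. The brightest read 813, 815 and 1063 at 0, 24 and 72 h, a difference of 0.39 at 72 h over 0 h. The other read 77.4, 146 and 406, which is 5.24-fold higher (log2 2.39). Both put 72 h highest, but the size differed by far more than the technical SD of 0.49. Across the family 19 Rab GTPases had several probe sets above the floor on both arrays in each comparison. Their probe sets fell on different sides of the 2-fold line for 4 genes at 24 h over 0 h (Rab3d, Rab7b, Rab21 and Rab43), for 4 at 72 h over 0 h (Rab3d, Rab18, Rab31 and Rab34) and for 3 at 72 h over 24 h (Rab18, Rab21 and Rab31). Of the 3 measured Rabs of other roles, Rab23, known from Hedgehog signalling, came nearest to 2-fold with 40.5, 56.0 and 79.1, a difference of 0.96 at 72 h over 0 h. Rab28 had 328, 224 and 232 and Rab40c 333, 255 and 340, while Rab40b was under the floor throughout. The second Rab40c probe set read 40.6, 39.3 and 69.0, a difference of 0.76 at 72 h over 0 h.

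The median of the Rab GTPases lay below that of all genes at 24 h and close to it at 72 h, both against 0 h. Their median log2 difference was -0.31 at 24 h over 0 h, with 13 genes above 0 and 27 below, against a median of 0.12 over all genes. At 72 h over 0 h it was -0.01, with 20 genes on either side, against -0.01 over all genes. At 72 h over 24 h it was 0.31, with 30 above 0 and 9 below, against -0.14 over all genes. The 24 h array was the lowest of the 3 for 18 of 40 Rab GTPases (45.0%), among them Rab7, Rab9, Rab11a, Rab13 and Rab33b, and for 18.7% of all genes above the floor. It was the highest for 1 of 40 (2.50%), and for 38.2% of all genes.

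The sign of the median at 24 h depended on the scaling, and the sign of its distance from the median of all genes did not. The median at 24 h over 0 h was 0.38 on the deposited scale, where the median of all genes was 0.78. Over all 10 settings the Rab median minus the all-gene median lay between -0.52 and -0.35 at 24 h over 0 h, between -0.06 and 0.07 at 72 h over 0 h, and between 0.35 and 0.49 at 72 h over 24 h. The deposited, trimmed mean and hybridization control scalings shift all genes of an array alike. Under them this distance could move only through the floor, so they were hardly a check of its sign. On the deposited scale 24 h was lowest for 12.5% of the Rab GTPases and 6.80% of all genes. The comparisons share arrays: the 24 h array enters the first and the last, so a deviation of that array would move both in opposite directions. Many of the single differences were under 1 technical SD, 20 of 40 at 24 h over 0 h, 21 of 40 at 72 h over 0 h and 17 of 39 at 72 h over 24 h.

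The Rab-named genes that are no GTPases held a pair of exchange factors with opposite differences. Rab3il1 and Rab3ip, known as GRAB and Rabin8, both load GTP onto Rab8 proteins. Rab3il1 had signals of 647, 70.1 and 73.4 at 0, 24 and 72 h. Both later arrays lay far below 0 h, 9.23-fold at 24 h (log2 -3.21) and 8.81-fold at 72 h (log2 -3.14), at rank 27 of 8439 and rank 79 of 8558 from the largest decrease. Its second probe set read 174 at 0 h and was under the floor at 24 and 72 h, at least 5.88-fold lower. Its other 3 probe sets were under the floor on all arrays, and averaging all 5 brought both differences to -0.65, under 2-fold.

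Rab3ip had signals of 36.6, 79.5 and 124, higher at each later time, 2.17-fold at 24 h over 0 h and 3.38-fold at 72 h over 0 h (log2 1.12 and 1.76). It starts just above the floor of 29.6. With the floor at the 60th percentile neither call was made, and the 72 h value was 0.42. The 24 h call was also lost with trimmed mean scaling, at 0.92. Rab11fip5, which binds Rab11 on recycling endosomes, had 430, 130 and 123, 3.30-fold lower at 24 h and 3.51-fold lower at 72 h. The 72 h call was kept under all 9 alternatives, and the 24 h call was lost on the deposited scale. Rab11fip5 has 1 probe set above every floor tried, so only the 4 scalings could change its values. Rab5if (2136, 1741 and 2208) stayed within 2-fold. Rab3gap2 was under the floor at 0 h (21.5) and read 31.5 at 24 h and 52.9 at 72 h, at least 1.79-fold higher at 72 h over 0 h. Rab26os was above the floor only at 24 h, at 43.1.

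Promoter windows from RefSeq (GRCm38.p6) were at hand for 48 of the 56 members. The 250 bases before the start are given for 2 Rab GTPases that were lower at 72 h, Rab32 and Rab8b, and for the 2 exchange factors of opposite direction. Capitals mark CACGTG, the core bound by basic helix-loop-helix factors, or TGACTCA, the AP-1 site, each searched on both strands. The windows are Rab32 chr10:10558208-10558457 (minus strand), Rab8b chr9:66919706-66919955 (minus strand), Rab3ip chr10:116950454-116950703 (minus strand) and, of 5 windows of Rab3il1, chr19:10017944-10018193 (plus strand).
Rab32: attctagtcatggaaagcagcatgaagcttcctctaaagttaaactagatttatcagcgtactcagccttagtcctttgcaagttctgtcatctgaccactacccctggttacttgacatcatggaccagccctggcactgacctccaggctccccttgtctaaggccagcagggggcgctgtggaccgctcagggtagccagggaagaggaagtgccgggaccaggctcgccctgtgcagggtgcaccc
Rab8b: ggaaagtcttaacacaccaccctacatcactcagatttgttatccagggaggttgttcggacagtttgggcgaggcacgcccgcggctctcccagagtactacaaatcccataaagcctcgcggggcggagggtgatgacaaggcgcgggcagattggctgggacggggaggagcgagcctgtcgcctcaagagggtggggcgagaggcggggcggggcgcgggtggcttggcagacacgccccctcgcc
Rab3ip: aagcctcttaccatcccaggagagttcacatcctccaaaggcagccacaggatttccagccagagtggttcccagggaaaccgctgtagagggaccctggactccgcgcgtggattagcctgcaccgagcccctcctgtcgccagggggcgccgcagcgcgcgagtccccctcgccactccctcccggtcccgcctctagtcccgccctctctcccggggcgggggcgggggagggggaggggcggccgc
Rab3il1: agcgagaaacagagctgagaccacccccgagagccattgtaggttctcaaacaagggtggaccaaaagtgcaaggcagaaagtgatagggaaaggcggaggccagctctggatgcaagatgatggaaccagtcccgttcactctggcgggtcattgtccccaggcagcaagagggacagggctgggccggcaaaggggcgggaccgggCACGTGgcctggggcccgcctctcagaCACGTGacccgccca
The Rab3il1 window holds CACGTG at 2 places, 42 and 15 bases before the start, and the other windows shown hold neither motif. Of the 5 windows of Rab3il1, 2 overlapping ones hold CACGTG and 3 hold neither motif. In windows of 300 bases, 250 before to 50 after the start, CACGTG was found for 6 of 42 Rab GTPase genes (14.3%) and for 12.0% of the 7126 array genes above the floor that had a window. TGACTCA was found for 2 of 42 (4.76%) and for 5.18%. The median GC content was 63.5% for the Rab GTPase genes and 62.0% for those array genes. These matches are a description of the letters and not of binding.

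Among 20 measured exchange factors 1 was higher and 1 lower at 24 h over 0 h, against 13.2% and 9.22% of all genes. At 72 h over 0 h 1 was higher and 3 lower, against 12.5% and 12.8% of all genes. Rabgef1, the exchange factor of Rab5 known as Rabex-5, had signals of 114, 241 and 447, which is a 2.11-fold increase at 24 h and a 3.91-fold increase at 72 h. It was higher at each later time. Dennd1a, which activates Rab35, had 163, 42.9 and 60.3, 3.79-fold lower at 24 h. Dennd4b, which activates Rab10, had 255, 145 and 58.2, 4.38-fold lower at 72 h over 0 h.

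Of 17 measured GTPase activating proteins 3 were higher (17.6%) and 2 lower (11.8%) at 72 h over 0 h, close to the shares over all genes. At 24 h over 0 h 0 of 16 were higher and 1 was lower, against 13.2% and 9.22% of all genes. Tbc1d24 had signals of 112, 54.2 and 285, so that it was 2.07-fold lower at 24 h and 2.54-fold higher at 72 h over 0 h. Tbc1d10a, which acts on Rab27a and Rab35, was 2.34-fold higher at 72 h over 0 h (132 against 56.5), and Rabgap1l 2.02-fold (122 against 60.6). Tbc1d24 (5.26-fold) and Rabgap1l (3.25-fold) were also the 2 of 17 that were higher at 72 h over 24 h, and 1 was lower. In that comparison 6.92% of all genes were higher and 10.0% lower. Tbc1d8 had 220 and 114 at 0 and 24 h and was under the floor at 72 h, at least 7.45-fold lower than at 0 h. Tbc1d14, a regulator of autophagy, was 2.71-fold lower (243 against 659).

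A list of genes that attach lipid to Rabs and cycle them off membranes, which also held Rab kinases, had 8 measured genes. Over all genes 22.4% and 25.3% differed at least 2-fold at 24 h and at 72 h over 0 h. Of the 8, 0 did at 24 h over 0 h and 1 at 72 h over 0 h. That gene was not of the lipid or cycling kind but the kinase Lrrk1, which acts on Rab7 and which osteoclasts need for bone resorption. It was 2.05-fold lower (118 at 72 h against 241 at 0 h). Of 29 measured effectors 2 were higher (6.90%) and 3 lower (10.3%) at 72 h over 0 h. The shares over all genes were 12.5% and 12.8%. Rilpl1, a binder of phosphorylated Rabs, had 35.4, 131 and 311, a 3.70-fold increase at 24 h and an 8.80-fold increase at 72 h. Its 0 h value lies near the floor. Rabep1, the Rab5 effector rabaptin-5, was 2.29-fold higher at 72 h over 0 h (249 against 109). Sytl4, a Rab27 effector also called granuphilin, was under the floor at both later times, at least 2.23-fold below its 65.8 at 0 h. Rufy3 and Rabep2 were 2.14-fold and 2.09-fold lower at 72 h over 0 h.

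At 72 h over 24 h 5 of 28 effectors were higher (17.9%) and 0 lower, against 6.92% and 10.0% of all genes. The largest were Mical1, an actin-oxidising enzyme (229 against 79.4, 2.89-fold), Vps39, a subunit of the HOPS complex that tethers late endosomes to lysosomes (394 against 156, 2.52-fold), and Rilpl2 (1278 against 533, 2.40-fold). Each of the 3 was lower at 24 h than at 0 h and highest at 72 h.

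**Figure D3:**
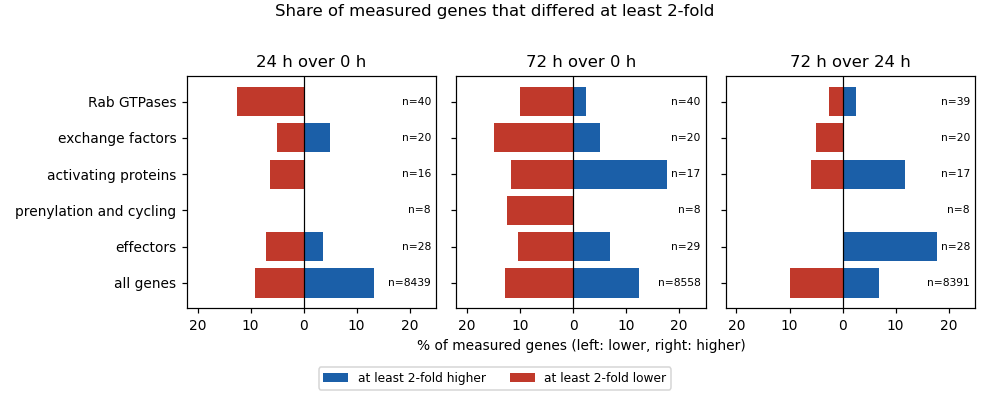
Share of measured genes, in percent, that were at least 2-fold higher (right) or lower (left) in each comparison, for the Rab GTPases, 4 lists of their partners and all genes; n is the number measured. For 24 h over 0 h the Rab GTPases have 0 higher and 12.5% lower, against 13.2% and 9.22% of all genes.

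Taking the GTPases and the other Rab-named genes together, 18 calls were made in the 3 comparisons. Of these, 4 were kept under all 9 alternative settings: Rab38 at 72 h over 0 h and over 24 h, and Rab7b and Rab11fip5 at 72 h over 0 h. For Rab38 and Rab11fip5, each with 1 probe set above every floor tried, only the 4 scalings could change the values. Genes with several probe sets or values near the floor faced more settings that could end a call.

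**Figure D4:**
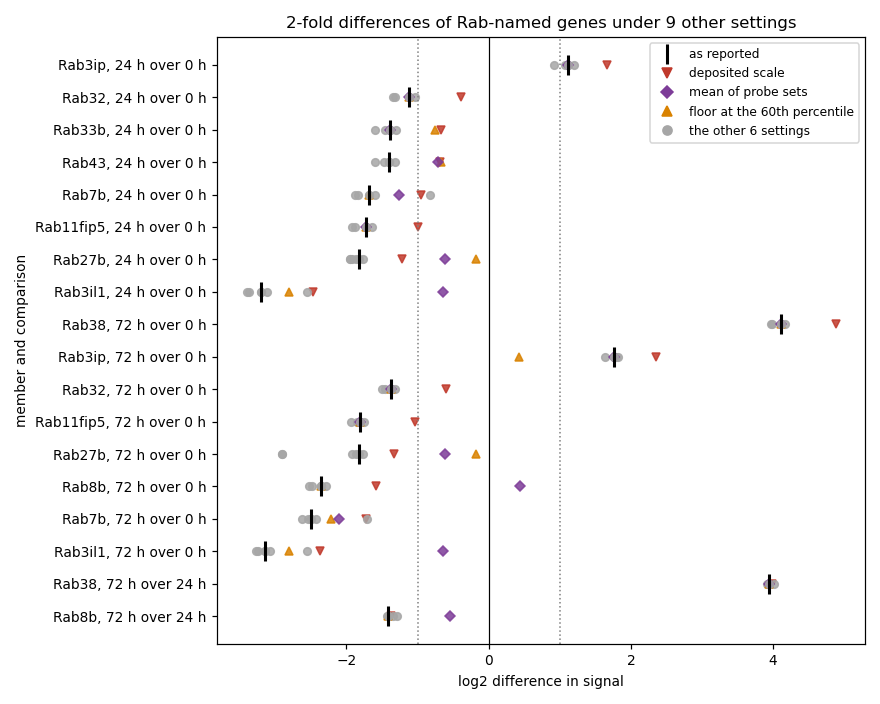
Log2 difference in signal (horizontal axis) of each of the 18 calls, as reported (black bar) and under 9 other settings (symbols), with dotted lines at 2-fold. Rab38 stays between 3.92 and 4.88 in every setting, while Rab8b at 72 h over 0 h reaches 0.45 when its probe sets are averaged.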

How the data were processed

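Total RNA of 3 mouse bone marrow cultures was measured on 1 Affymetrix array each. The deposited values are linear intensity signals for each probe set, made with MAS5 per the submitters' processing notes; the version is not given in the sources used here. Of 22626 gene probe sets, 20380 had 1 symbol in the platform annotation of 2016, and all 56 members matched a RefSeq gene of the same symbol and identifier (GRCm38.p6, used for names and promoter windows). From the deposited intensities, log2 values were centred on each array's median over gene probe sets, brought to the mean scale of the arrays and floored at the 40th percentile (29.6 units, 4.89 on the log2 scale). Each gene was read from its brightest single-symbol probe set (by mean log2 value). It was measured in a comparison if 1 of the 2 arrays was above the floor, and called at a log2 difference of 1. A fold against a value under the floor is a lower bound. The technical SD is that of the difference between the 2 brightest probe sets of a gene, both above the floor on both arrays, divided by the square root of 2. Python 3.11.15, numpy 2.4.6 and pandas 2.3.3 were used, and the steps were tested on simulated data.

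Named members are those called in any comparison plus a fixed set of Rabs of osteoclast or endosome traffic. Rab18, Rab31, Rab34, Rab21 and the other Rabs outside it were picked after their values were seen. From the partner lists, at most the 3 largest calls each way were taken. The members and lists were chosen with earlier results of these data known. Protein sequences were not analysed here.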

Additional observations from a re-analysis of the deposited data

How the results depend on the processing

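The counts and medians of the Rab GTPases were recomputed under 9 alternatives, as were the shares lowest or highest at 24 h. The differences of members called in any comparison or in the fixed set of Rabs were recomputed too. Other members, the groups by role, the partner lists, the markers and the ranks were not. The alternatives included 4 scalings (deposited, quantile, 2% trimmed mean, 18 hybridization controls) and 3 floor choices (the 20th and 60th percentiles and none). In the others probe sets were averaged, or those that match several transcripts were left out. Of 81 counts and medians of Rab GTPases, 61 stayed within 1.5 times the reported count or within the technical SD. That SD belongs to single genes and exceeded every reported median in size. A median could thus change sign and still be counted among the 61. At 24 h over 0 h, 7 Rab GTPases were higher and 1 lower on the deposited scale (median 0.38). The lower floor gave 1 higher, no floor 2 higher, the higher floor 2 lower and averaged probe sets 3 lower. At 72 h over 0 h, 16 were higher on the deposited scale (median 0.73), 2 with hybridization controls, 3 with the lower floor, 6 with no floor, 4 with probe sets averaged and 2 without multi-transcript probe sets, and 2 were lower with probe sets averaged. At 72 h over 24 h, 2 were higher and 2 lower with the lower floor, and 5 higher and 2 lower with no floor. Without multi-transcript probe sets 2 were higher. The counts over all genes moved as well. With no floor 1983 of 12393 genes were higher at 72 h over 0 h, against 1068 as reported. At 72 h over 24 h it was 1486, against 581. With probe sets averaged 1043 genes were higher at 72 h over 0 h. The Rab8b difference at 72 h over 0 h reversed to 0.45 with probe sets averaged, an average that takes in a probe set under the floor. It was the 1 call of 18 that changed sign. Over all 523 recomputed differences of named members, under 2-fold ones included, 31 changed sign, 16 of them on the deposited scale, and 70 moved by more than the technical SD; the cause of those was not tested. Rab8b turned from -0.95 to 0.99 at 24 h over 0 h with probe sets averaged. No paired analysis was possible because each time has 1 array, and no array could be left out.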

Other observations

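Outside the symbol rule, the Rab-like genes Rabl3 and Rabl6 were also on the array, by 2 and 3 probe sets. The brightest Rabl3 probe set had signals of 154 at 0 h, 207 at 24 h and 149 at 72 h, and the brightest of Rabl6 had 244, 336 and 238. Both were highest at 24 h and stayed within 2-fold, at 0.43 and 0.47 on the log2 scale for 24 h over 0 h. They were chosen after their values were seen, and 1 array per time gives no test of them.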
